A study of Homo sapiens with 6 samples.

Results

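A list of 10 genes of the smooth muscle contractile programme was followed in UE7T-9 cells with and without added SHC4. They are ACTA2, TAGLN, CNN1, MYH11, MYL9, TPM1, TPM2 and LMOD1, which encode parts of the contractile apparatus, and MYOCD and SRF, which encode its transcriptional regulators. The genes were taken by symbol from a fixed list, and all 10 were found among the 28181 genes of the files. UE7T-9 is an established line of mesenchymal stem cells from human bone marrow, made immortal by hTERT and the E7 gene of human papillomavirus. UE7T-9 SHC4 was made by infection with a lentivirus in which the CMV promoter drives SHC4, an adaptor protein of receptor tyrosine kinase signalling. UE7T-9 Cont received the matching GFP vector according to the methods of the study, whereas the sample labels call these samples Nontarget and give a WT genotype. Both vectors carry puromycin resistance, and the cells were grown in DMEM. The design note calls the SHC4 cells clones without giving their number, and each group had 3 samples labelled as biological replicates. The sources do not say whether these came from separate infections, clones or cultures, so p-values measure the spread between these samples, which may be technical.

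Serum response factor (SRF) binds the CArG box, a short DNA motif found near many muscle, cytoskeletal and growth response genes. SRF works with partner proteins. The myocardin-related factors MRTFA and MRTFB enter the nucleus when actin polymerizes, myocardin (MYOCD) is the muscle-restricted member of that family, and the ternary complex factors ELK1, ELK3 and ELK4 couple SRF to mitogen signalling. Cultured mesenchymal stem cells commonly express part of the smooth muscle programme, with ACTA2 and TAGLN among the usual early markers and MYH11 a marker of mature smooth muscle.

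The start regions of 4 of the genes are shown because they hold the matches to a CArG box found in the list, or belong to the members with the largest log2 fold changes. Promoter sequences from RefSeq on GRCh38.p14 matched 6 of the 10 genes, with 9 windows in all, and the 250 bases before each start were searched. A CArG box was counted as a pair of C, 6 core bases that are each A or T, and a pair of G, and it reads the same way on both strands. A weaker form with one core base other than A or T was counted separately. Capitals mark CArG boxes in the SRF, ACTG2, SMTN and FHL1 sequences and the weaker form in the ACTA2 sequence. The window of ACTA2 is at chr10:88952774-88953023 on the minus strand, that of SRF at chr6:43171019-43171268 on the plus strand, that of CNN1 at chr19:11538601-11538850 on the plus strand and that of LMOD1 at chr1:201946549-201946798 on the minus strand.
ACTA2: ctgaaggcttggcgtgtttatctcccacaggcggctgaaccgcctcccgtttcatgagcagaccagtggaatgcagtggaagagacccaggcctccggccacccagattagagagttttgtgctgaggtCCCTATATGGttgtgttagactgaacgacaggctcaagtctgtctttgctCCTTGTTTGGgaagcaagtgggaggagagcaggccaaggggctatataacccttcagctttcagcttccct
SRF: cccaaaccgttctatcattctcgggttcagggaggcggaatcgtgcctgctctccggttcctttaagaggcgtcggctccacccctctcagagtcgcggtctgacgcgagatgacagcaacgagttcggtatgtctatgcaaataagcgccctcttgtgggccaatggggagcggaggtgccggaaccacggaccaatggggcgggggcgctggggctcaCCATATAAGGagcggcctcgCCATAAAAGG
CNN1: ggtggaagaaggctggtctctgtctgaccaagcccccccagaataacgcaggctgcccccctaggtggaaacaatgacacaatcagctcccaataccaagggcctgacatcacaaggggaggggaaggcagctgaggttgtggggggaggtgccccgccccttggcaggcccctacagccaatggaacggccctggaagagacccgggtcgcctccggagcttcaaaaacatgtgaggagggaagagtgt
LMOD1: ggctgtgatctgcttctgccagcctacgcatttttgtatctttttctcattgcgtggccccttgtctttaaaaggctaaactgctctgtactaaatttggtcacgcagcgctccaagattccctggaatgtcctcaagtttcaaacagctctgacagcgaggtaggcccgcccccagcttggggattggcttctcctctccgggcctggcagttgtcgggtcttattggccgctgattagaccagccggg
The SRF start carried both of its CArG boxes within 30 bases of the start. The 2 weaker matches of ACTA2 lay 121 to 112 and 71 to 62 bases before the start. The windows of CNN1, LMOD1, TPM1 and TPM2 held neither form. Among all 35116 promoter windows, 1.16% held a CArG box and 5.96% the weaker form, so 1 member window of 9 with each is a small count. A match is a description of the letters, and a window without one says only that the letters were absent from those 250 bases.

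The authors deposited normalized counts, which are gene counts divided by a size factor for each library. Every deposited value was a whole number of reads once multiplied by its library's size factor (100% of values, tolerance 0.01 reads), and the libraries held 18144993 to 27721397 reads. SHC4 itself checked the labels, with 56.5, 157 and 130 normalized counts in the controls against 134870, 119166 and 155006 with added SHC4 (limma log2 fold change 10.32, adjusted p = 2.09e-06). UE7T-9 Cont replicate 1 stood apart from the other controls, and its log2 values correlated more closely with UE7T-9 SHC4 replicate 1 (r = 0.975 across genes, which are not independent replicates) than with UE7T-9 Cont replicates 2 and 3 (0.967 and 0.962). Differences were tested with limma on log2(normalized count + 1) over 23040 genes, a scale that understates the change of low genes. Benjamini-Hochberg adjusted p-values cover all of them. Log2 fold changes are UE7T-9 SHC4 minus UE7T-9 Cont.

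No contractile gene passed the limma threshold of an adjusted p below 0.05, with or without the added requirement of a log2 fold change beyond 1. Across all genes 0.0651% passed the first and 0.0608% both. Unadjusted p-values were below 0.05 for 4 of the 10, namely CNN1, LMOD1, MYL9 and TAGLN, against 3323 of all 23040 genes. DESeq2 on the recovered reads called 1 of the 10, CNN1, which was lower in UE7T-9 SHC4 (background 4.14% of genes), and edgeR called 0 (background 0.0694%). The 2 groups did not overlap in CNN1, MYL9 and LMOD1, 3 of 10 genes, where 19.3% of all genes had no overlap. Of the 10 genes, 8 had a log2 fold change above 0 and 2 below it. The median over the list was 0.25, while 49.7% of all genes were higher and their median was -0.004. The median of the list rested on single libraries, and was 0.043 without UE7T-9 Cont replicate 2, 0.051 without UE7T-9 SHC4 replicate 1, 0.39 without UE7T-9 Cont replicate 1 and 0.43 without UE7T-9 SHC4 replicate 3.

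**Figure D1:**
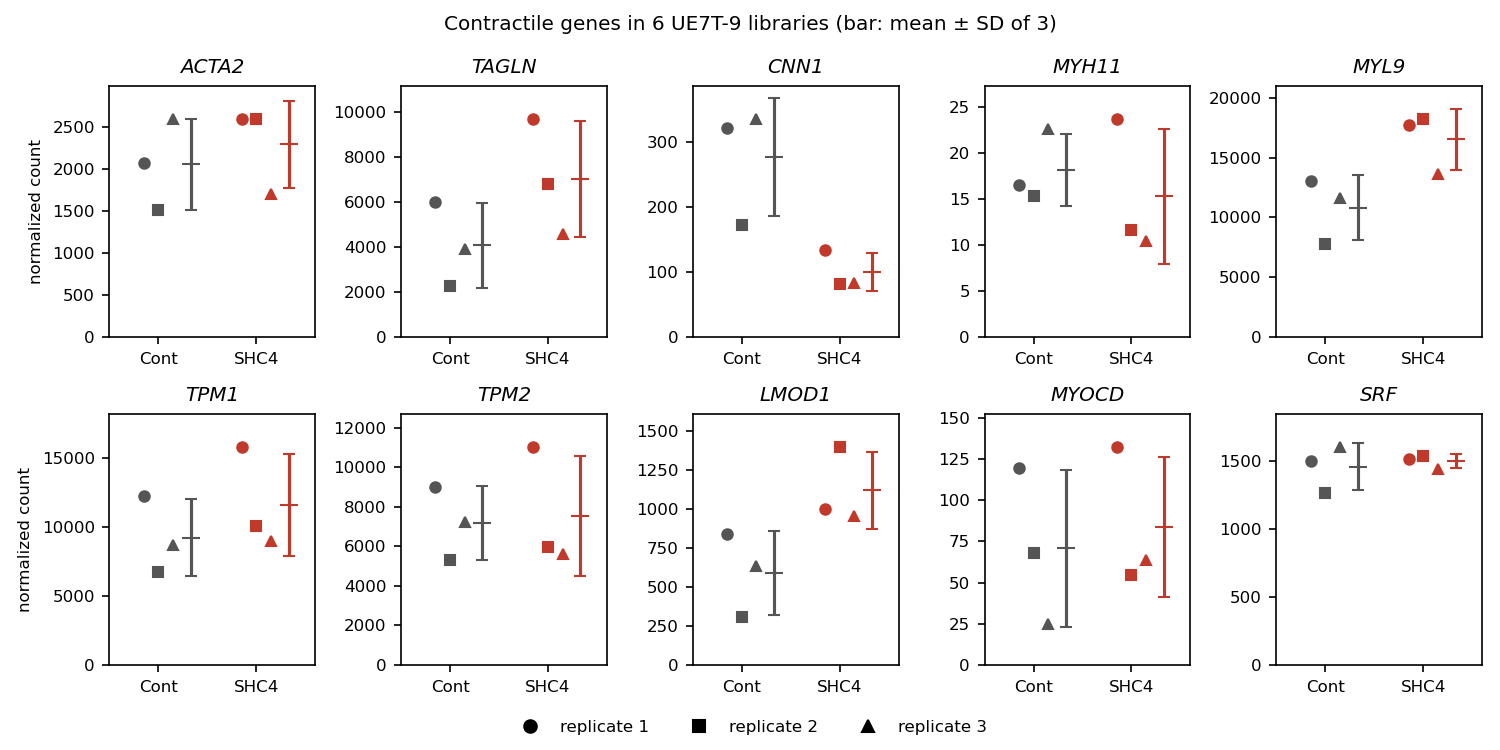
Normalized counts (linear axes from 0) of the 10 contractile genes in each UE7T-9 Cont (grey) and UE7T-9 SHC4 (red) library, with circles, squares and triangles for replicates 1, 2 and 3 and a bar for the mean ± SD of 3 libraries. With added SHC4, CNN1 lies below and MYL9 and LMOD1 lie above every control library, while the other 7 genes overlap.

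CNN1 encodes calponin 1, an actin-binding protein that restrains myosin ATPase activity (ENSG00000130176, chr19:11538717-11550323, plus strand, GRCh38). CNN1 had a normalized count of 322.7, 173 and 336 in the controls (replicates 1, 2 and 3, the order used throughout) against 134, 82.4 and 83.8 with added SHC4. Every UE7T-9 SHC4 library was below every control, though the lowest control (replicate 2) came close to the highest library with added SHC4 (replicate 1). The mean was 277 ± 90.6 in the controls and 99.9 ± 29.1 with added SHC4 (SD, n = 3 each), 2.78-fold lower. The limma log2 fold change was -1.44 (standard error, SE, 0.30, 95% interval -2.11 to -0.77, adjusted p = 0.122). DESeq2 gave -1.47 with an adjusted p of 0.000867, and edgeR an adjusted p of 0.135. The call therefore rested on the choice of test, while the direction and size did not.

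LMOD1 encodes leiomodin 1, which nucleates actin filaments in smooth muscle (ENSG00000163431, chr1:201896452-201946588, minus strand). LMOD1 reached normalized counts of 837, 304 and 631 in the controls against 997, 1398 and 955 with added SHC4. All 3 UE7T-9 SHC4 libraries were above all 3 controls, and UE7T-9 Cont replicate 2 was far below the other 5 libraries. The mean went from 590.5 ± 269 to 1116 ± 244 (SD, n = 3 each), 1.89-fold higher. The log2 fold change was 1.02 in limma (SE 0.33, 95% interval 0.28 to 1.75, adjusted p = 0.224) and 0.92 in DESeq2 (adjusted p = 0.0923). Without UE7T-9 Cont replicate 1, it was 1.33 in limma (adjusted p = 0.0378), and without UE7T-9 Cont replicate 2 it was 0.60 (adjusted p = 0.466).

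MYL9 encodes the regulatory myosin light chain whose phosphorylation starts contraction (ENSG00000101335, chr20:36541484-36551447, plus strand). MYL9 stood at 13038, 7786 and 11613 in the controls against 17723, 18243 and 13591 normalized counts with added SHC4. The groups did not overlap, with UE7T-9 SHC4 replicate 3 just above UE7T-9 Cont replicate 1. The mean went from 10812 ± 2716 to 16519 ± 2549 (SD, n = 3 each), and limma put the log2 fold change at 0.63 (SE 0.22, 95% interval 0.13 to 1.14, adjusted p = 0.261). DESeq2 gave 0.61 with an adjusted p of 0.104. For CNN1, LMOD1 and MYL9 alike the exact permutation test over libraries gave a two-sided p of 0.1, the smallest that 3 libraries against 3 allow.

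TAGLN encodes transgelin (SM22 alpha), an actin cross-linking protein and early smooth muscle marker (ENSG00000149591, chr11:117199321-117204782, plus strand). TAGLN stood at 6019, 2286 and 3909 in the controls against 9698, 6791 and 4574 normalized counts with added SHC4. The groups overlapped because UE7T-9 Cont replicate 1 lay above UE7T-9 SHC4 replicate 3. The limma log2 fold change was 0.83 (SE 0.36, 95% interval 0.03 to 1.63, adjusted p = 0.331), and DESeq2 gave 0.79 (adjusted p = 0.213). Exons of TAGLN share 446 nucleotides with PCSK7 on the opposite strand, and the strand setting of the counting was not stated. PCSK7 had a mean normalized count of 873 over the 6 libraries, so reads of the shared stretch cannot be told apart.

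ACTA2 encodes smooth muscle alpha-actin (ENSG00000107796, chr10:88935074-88991339, minus strand). ACTA2 stood at 2073, 1512 and 2599 in the controls against 2597, 2604 and 1701 normalized counts with added SHC4. Each group held high and low libraries and the ranges overlapped almost fully. The mean was 2061 ± 544 in the controls and 2301 ± 519 with added SHC4 (SD, n = 3 each). In limma the log2 fold change was 0.17 (SE 0.23, adjusted p = 0.784), and its 95% interval of -0.35 to 0.68 allows anything from 0.786 to 1.60 times the control level. ACTA2 shares 380 exon nucleotides with FAS on the opposite strand, 12.8% of its exon length, and FAS had a mean normalized count of 2988.

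TPM1 and TPM2 encode tropomyosins, which lie along actin filaments and control access of myosin. TPM1 (ENSG00000140416, chr15:63042632-63071915, plus strand) had normalized counts of 12254, 6740 and 8680 in the controls against 15829, 10038 and 8963 with added SHC4. TPM2 (ENSG00000198467, chr9:35681992-35690121, minus strand) had 8992, 5291 and 7241 in the controls against 11048, 5971 and 5627 with added SHC4. In both genes replicate 1 was the highest library of its group, and the groups overlapped. The limma log2 fold change was 0.33 for TPM1 (95% interval -0.27 to 0.93, adjusted p = 0.614). For TPM2 it was 0.04 (95% interval -0.60 to 0.67, adjusted p = 0.968), and it fell below 0 under library size scaling (-0.07). Antisense genes that share exon sequence with TPM1 (TPM1-AS) and with LMOD1 (AL513217.1) had mean normalized counts of 12.6 and 1.68.

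MYH11 encodes the smooth muscle myosin heavy chain (ENSG00000133392, chr16:15703172-15857033, minus strand). It rested on only 17, 13 and 23 reads in the controls against 27, 14 and 9 reads with added SHC4. The normalized counts were 16.6, 15.3 and 22.6 against 23.7, 11.7 and 10.5, with UE7T-9 SHC4 replicate 1 the highest of all 6. The limma log2 fold change was -0.30 (95% interval -1.31 to 0.70, adjusted p = 0.796), and the wide interval includes changes in either direction. MYH11 exons share 765 nucleotides with NDE1 on the opposite strand, a gene with a mean normalized count of 869, and without a strand setting reads of the shared stretch cannot be told apart.

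For SRF and MYOCD, the regulators of the list, no difference beyond the spread of the libraries was detected. SRF (ENSG00000112658, chr6:43171299-43181507, plus strand) had normalized counts of 1501, 1267 and 1607 in the controls against 1519, 1539 and 1439 with added SHC4. The range was narrow and overlapping, and the log2 fold change of 0.05 had a 95% interval of -0.24 to 0.33 (limma adjusted p = 0.901), with a value of -0.06 under library size scaling. MYOCD (ENSG00000141052, chr17:12665890-12768949, plus strand) had normalized counts of 119.9, 68.3 and 24.6 in the controls against 133, 54.9 and 64.0 with added SHC4. Replicate 1 of each group was highest, and the log2 fold change of 0.39 had a wide 95% interval of -0.84 to 1.63 (limma adjusted p = 0.786).

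**Figure D2:**
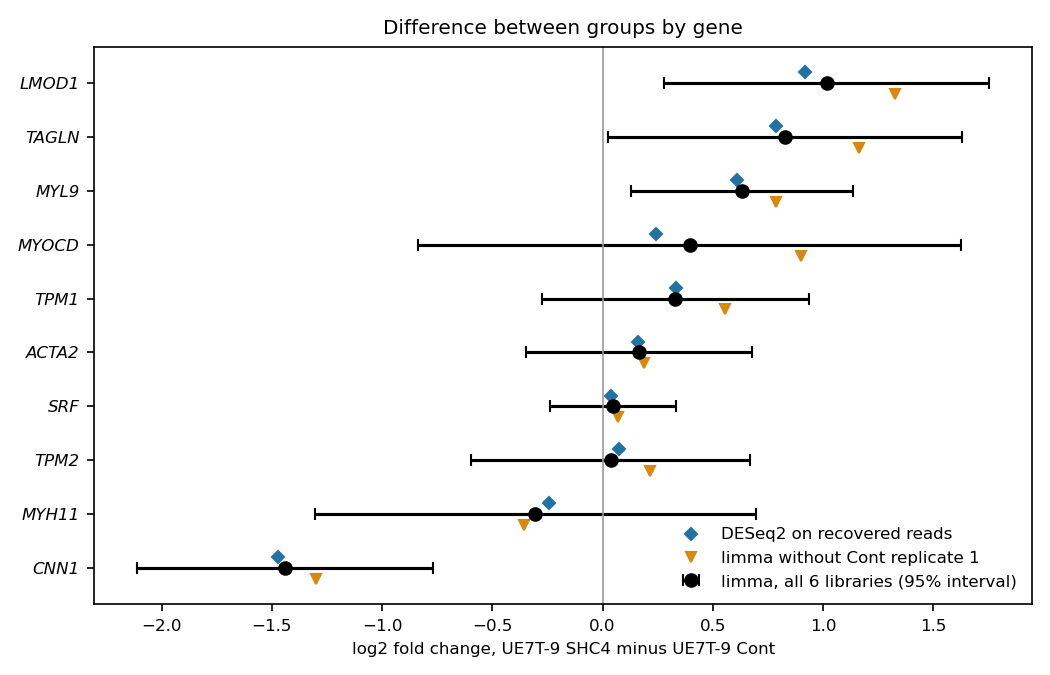
Log2 fold change (UE7T-9 SHC4 minus UE7T-9 Cont) of the 10 genes, with limma estimates on all 6 libraries as black circles with 95% intervals, DESeq2 on recovered reads as blue diamonds and limma without UE7T-9 Cont replicate 1 as orange triangles. The unadjusted intervals of CNN1 (-2.11 to -0.77), LMOD1, TAGLN and MYL9 exclude 0 while those of the other 6 genes include it.

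The members kept a wide order of levels. Per kilobase of annotated exon, MYL9 was the most abundant in UE7T-9 Cont (3833 ± 963 normalized counts per kb, SD, n = 3), followed by TPM2 (2209 ± 570) and TAGLN (1039 ± 478). TPM1 (716 ± 217) and ACTA2 (693 ± 183) came next. SRF (347 ± 41.5), LMOD1 (149 ± 67.8) and CNN1 (96.1 ± 31.4) followed, and MYOCD (7.99 ± 5.38) and MYH11 (1.13 ± 0.243) were lowest. The mean ± SD ranges of TAGLN and TPM1, of TPM1 and ACTA2, and of LMOD1 and CNN1 overlapped. The divisor was the merged length of all annotated exons of a gene, 12876 nucleotides for TPM1 and 3248 for TPM2. Before this division the mean in UE7T-9 Cont was 9225 for TPM1 and 7175 for TPM2, so the order depends on that length. In UE7T-9 SHC4 the order was the same, from MYL9 at 5856 ± 904 down to MYOCD at 9.45 ± 4.79 and MYH11 at 0.949 ± 0.455. LMOD1 at 281 ± 61.6 and CNN1 at 34.6 ± 10.1 per kb stood further apart there than in UE7T-9 Cont. The non-muscle actins ACTB (27963 ± 6500) and ACTG1 (24344 ± 11983) exceeded ACTA2 many times over in UE7T-9 Cont on this per-kb scale.

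The libraries of a group differed among themselves in a shared way. UE7T-9 Cont replicate 2 was the lowest control in 9 of the 10 genes and the lowest of all 6 libraries in 7, whereas over all genes tested it was the lowest control in 26.4%. UE7T-9 SHC4 replicate 3 was the lowest of its group in 8 genes, against 31.7% of all genes tested. UE7T-9 SHC4 replicate 1 was the highest of all 6 libraries in 5 genes, a count for which no share over all genes was computed. The 10 genes together took 0.194%, 0.119% and 0.182% of the reads in the controls against 0.258%, 0.203% and 0.159% with added SHC4. The 2 groups overlapped in this share.

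**Figure D3:**
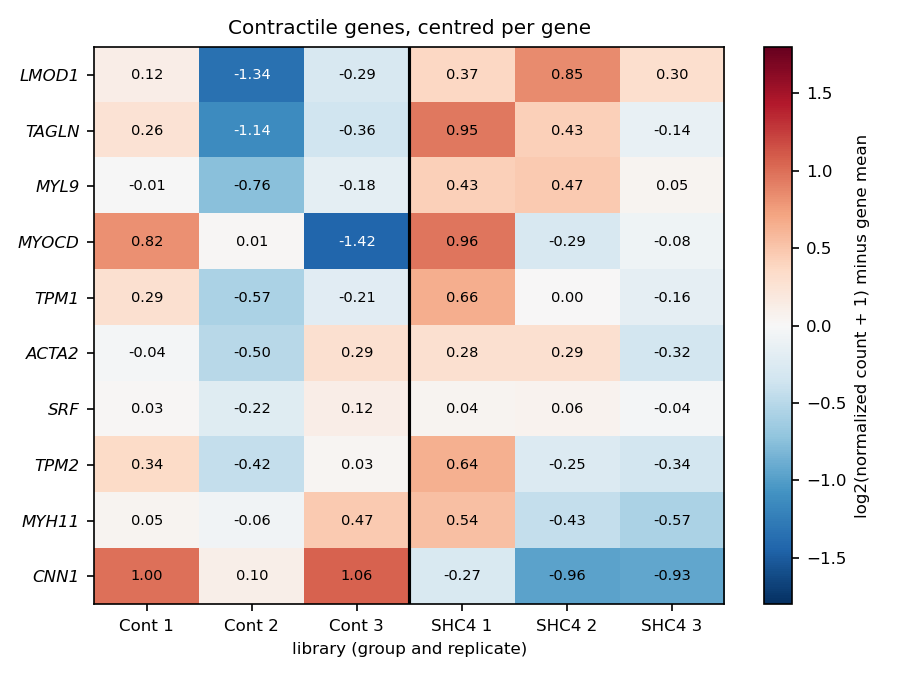
Log2(normalized count + 1) of each gene minus its mean over the 6 libraries, with genes as rows ordered by limma log2 fold change, libraries as columns, red for above and blue for below the gene's mean. The column of UE7T-9 Cont replicate 2 is low for LMOD1 (-1.34), TAGLN (-1.14) and MYL9 (-0.76) but not for CNN1 (0.10), whose row runs from high in UE7T-9 Cont to low in UE7T-9 SHC4.

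Ratios between members within a library do not depend on the scaling between libraries. The ratios were chosen after the values were seen and are given without a test. For every 100 reads of LMOD1 there were 38.5, 57.0 and 53.4 reads of CNN1 in the controls against 13.4, 5.90 and 8.78 with added SHC4. For every 100 reads of MYL9 there were 2.47, 2.22 and 2.90 reads of CNN1 in the controls against 0.754, 0.452 and 0.617 with added SHC4. Against ACTA2, whose own log2 fold change was 0.17, CNN1 had 15.6, 11.4 and 12.9 reads per 100 in the controls against 5.14, 3.16 and 4.93 with added SHC4. In all 3 ratios the groups lay clear of each other. For LMOD1 and MYL9 this was fixed by the counts and adds no support. CNN1 was lower, and LMOD1 and MYL9 were higher, in every UE7T-9 SHC4 library than in every control. ACTA2 counts overlapped between the groups, so the ratio to ACTA2 was not fixed in this way. It still uses the same CNN1 counts, so it restates their difference and adds no separate support. TPM1 reads per 100 TPM2 reads were 136, 127 and 120 in the controls against 143, 168 and 159 with added SHC4, also without overlap. LMOD1 reads per 100 ACTA2 reads were 40.4, 20.1 and 24.3 against 38.4, 53.7 and 56.1 and overlapped through UE7T-9 Cont replicate 1.

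**Figure D4:**
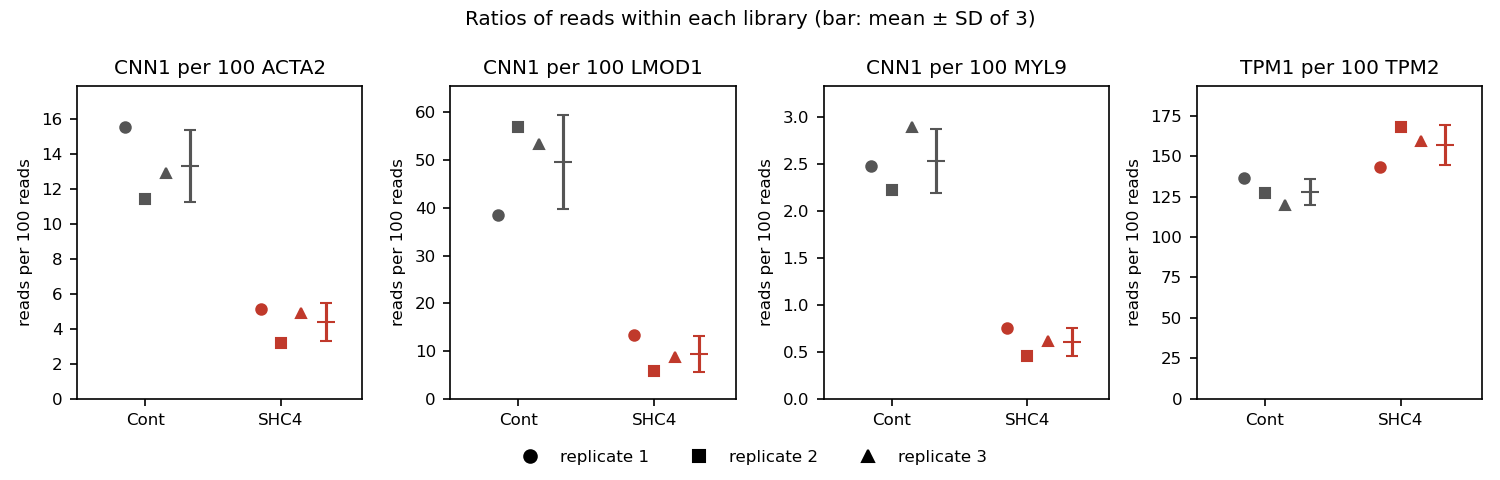
Reads of one gene per 100 reads of another within each library (linear axes from 0), in UE7T-9 Cont (grey) and UE7T-9 SHC4 (red), with a marker for each replicate and a bar for the mean ± SD of 3 libraries. CNN1 lies at 11.4 to 15.6 per 100 ACTA2 reads in the controls and at 3.16 to 5.14 in UE7T-9 SHC4. Its ratios to LMOD1 and MYL9 separate as well, which the counts of these genes fix in advance. All ratios of CNN1 use the same CNN1 counts.

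Because UE7T-9 Cont replicate 1 stood apart, the tests were repeated without it, a choice made with the data in view for DESeq2. With limma, LMOD1 then passed (1 of 10 genes, background 5.17%), whereas TAGLN (log2 fold change 1.16, adjusted p = 0.0722), MYL9 (0.78, 0.0799) and CNN1 (-1.30, 0.0583) did not. With DESeq2, 4 of 10 genes passed (background 14.0%). LMOD1 (log2 fold change 1.26, adjusted p = 0.000885), TAGLN (1.18, 0.00286) and MYL9 (0.77, 0.00676) were higher in UE7T-9 SHC4 and CNN1 (-1.35, 0.00363) was lower. Leaving out UE7T-9 Cont replicate 2 instead, the lowest control in 9 of the 10 genes, moved the limma log2 fold changes the other way for LMOD1 (0.60, adjusted p = 0.466), TAGLN (0.47, 0.655) and MYL9 (0.41, 0.573). That of CNN1 was then -1.75 (adjusted p = 0.245).

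Other genes of the smooth muscle programme lay on both sides of the control level. Of 26 listed genes, 25 were tested, 13 of them higher and 12 lower (median log2 fold change 0.10). DESeq2 gave adjusted p-values for 21 of them and called 3 higher and 2 lower (background 4.14% of genes). Without UE7T-9 Cont replicate 1 it called 8 higher and 2 lower of 21 (background 14.0%). ITGA8, the alpha 8 integrin of smooth muscle and other contractile mesenchymal cells, was the one gene of this list to pass in limma. Its normalized count was 215, 300.2 and 192 in the controls against 956, 1413 and 1499.9 with added SHC4, with the groups far apart. ITGA8 rose by 2.45 on the log2 scale (limma SE 0.22, with an adjusted p = 0.0047 in limma, 3.33e-19 in DESeq2 and 0.0162 in edgeR). Its limma adjusted p was 0.0815 without UE7T-9 SHC4 replicate 2 and 0.0985 without UE7T-9 SHC4 replicate 3.

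ACTG2, which encodes the enteric smooth muscle gamma-actin, was called lower by DESeq2, as CNN1 was. Its normalized count was 41.9, 30.6 and 68.9 in the controls against 13.2, 11.7 and 5.82 with added SHC4, so the groups did not overlap. These values rested on only 43, 26 and 70 reads in the controls against 15, 14 and 5 with added SHC4. The DESeq2 log2 fold change was -2.19 (adjusted p = 0.00349 in DESeq2 and 0.136 in limma). SMTN, which encodes the actin-associated protein smoothelin, had 2884, 3885 and 5097 in the controls against 2666, 2149 and 1990.1 with added SHC4. These values did not overlap either, and the DESeq2 log2 fold change was -0.80 (adjusted p = 0.0243 in DESeq2 and 0.184 in limma).

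In the opposite direction, DESeq2 called CALD1 and FHL1. CALD1 encodes caldesmon, which binds actin and calmodulin, and its normalized count was 24439, 16254 and 17781 in the controls against 31852, 31962 and 26186 with added SHC4. The groups lay apart by a narrow margin, with a DESeq2 log2 fold change of 0.62 (adjusted p = 0.0461 in DESeq2 and 0.24 in limma). FHL1, a LIM-domain protein of muscle, had 2068, 906.5 and 1002 in the controls against 4718, 2818 and 2327 with added SHC4. UE7T-9 Cont replicate 1 was the highest control and still below every UE7T-9 SHC4 library, and the DESeq2 log2 fold change was 1.31 (adjusted p = 0.00957 in DESeq2 and 0.17 in limma). The desmin gene DES, a marker of mature muscle, was at 5.85, 3.53 and 0 in the controls against 0.879, 0.832 and 1.16 with added SHC4, where 3 reads correspond to 2.50 to 3.53 normalized counts.

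Of the list genes that DESeq2 called, ACTG2 and SMTN (lower) and FHL1 (higher) had CArG boxes before a start, and these are shown to set beside the members. SMTN and FHL1 have several windows each, of which a single one held the box. They lie at chr2:73892878-73892927, chr2:73892915-73892964, chr22:31084932-31084981 and chrX:136196901-136196950 of GRCh38.p14, all on the plus strand. Of the other smooth muscle genes with a promoter window, 6 of 22 held a CArG box, in 6 of 56 windows. Among all 35116 windows 1.16% held one, and no test was run on this difference. A gene with more windows has more room for a match.
ACTG2, outer box: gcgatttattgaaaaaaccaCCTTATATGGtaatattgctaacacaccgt
ACTG2, inner box: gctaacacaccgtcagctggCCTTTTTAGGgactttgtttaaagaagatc
SMTN: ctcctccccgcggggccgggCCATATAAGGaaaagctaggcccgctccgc
FHL1: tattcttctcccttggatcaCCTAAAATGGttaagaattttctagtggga

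Among SRF cofactors and the non-muscle relatives of these genes no gene passed with all 6 libraries. Of 14 tested SRF cofactors and regulators, 5 were higher and 9 lower (median -0.03), and 0 passed in limma, DESeq2 or edgeR, with 2 at an unadjusted limma p below 0.05. MRTFA (log2 fold change -0.09, limma adjusted p = 0.81) and MRTFB (-0.005, 0.99) were among them. Of 32 tested non-muscle paralogs and cytoskeletal targets of SRF, which include ACTB, ACTG1, CNN2, MYH9 and VCL, 16 were higher and 16 lower (median 0.05). None passed in limma, or in DESeq2 and edgeR, which gave adjusted p-values for 28 of them, and 7 had an unadjusted limma p below 0.05. Over all 23040 genes tested, 3323 had an unadjusted limma p below 0.05. Without UE7T-9 Cont replicate 1, DESeq2 called 7 of the 28 cytoskeletal genes higher and 3 lower (background 14.0%). In that setting limma called 1 of the 32 lower (background 5.17%), and neither tool called an SRF cofactor.

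CNN2, the non-muscle paralog of CNN1, had a log2 fold change of 0.26 (limma adjusted p = 0.66). There were 4.01, 4.12 and 6.62 reads of CNN1 per 100 reads of CNN2 in the controls against 1.70, 1.27 and 1.46 with added SHC4, so the muscle share of these calponin reads was lower in every UE7T-9 SHC4 library. The immediate early targets of SRF, which respond to mitogens through the ternary complex factors, were 8 higher and 4 lower of 12 (median 0.10). None of the 12 passed in limma or edgeR, with 1 at an unadjusted limma p below 0.05 (3323 of all 23040 genes). DESeq2 called IER3, a stress-induced survival gene (background 4.14% of genes). Its normalized count was 1553, 2652 and 1952 in the controls against 845.5, 647 and 1339 with added SHC4, with a DESeq2 log2 fold change of -1.12 (adjusted p = 0.00856 in DESeq2 and 0.156 in limma).

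**Figure D5:**
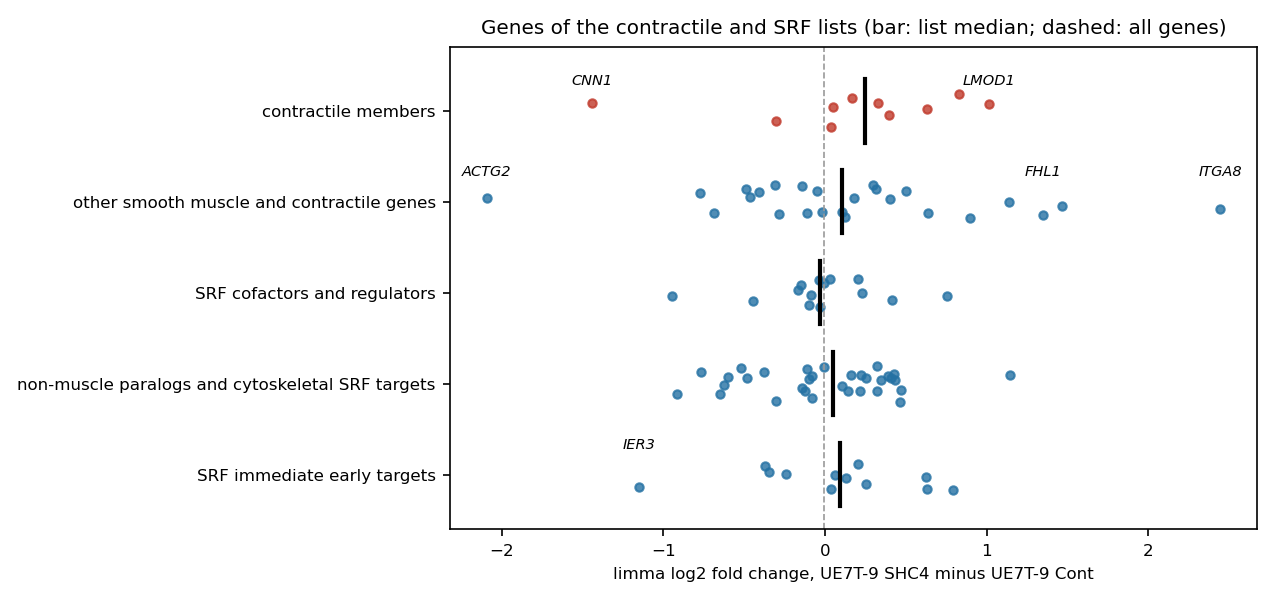
Limma log2 fold change (UE7T-9 SHC4 minus UE7T-9 Cont) of each tested gene in the contractile list (red) and 4 related lists (blue), with a black bar at the list median and a dashed line at the median of all genes. The 10 contractile genes run from CNN1 (-1.44) to LMOD1 (1.02), and ITGA8 (2.45) and ACTG2 (-2.09) lie at the ends of the other smooth muscle genes.

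The profile of ACTA2 over the 6 libraries was also compared with those of 12669 genes whose mean normalized count reached 50, by the root mean square difference of centred log2 values. The 5 nearest genes outside the list were KRTCAP2 (0.094), BORCS8 (0.108), GOLGA2P10 (0.117), RPL29P19 (0.129) and ZNF767P (0.132). Among the members, SRF (0.224), MYL9 (0.283) and TPM1 (0.318) were nearer to ACTA2 than CNN1 (0.843) and MYOCD (0.892) were. With 6 libraries and so many genes, such closeness is a description of these values.

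Markers of other cell types were read beside these results. The mesenchymal stem cell markers of the labelled cell type were all present, with 10 of 12 higher and 2 lower (median log2 fold change 0.23). Their summed normalized count was 530082 to 1706800 in the controls and 1199810 to 1459750 with added SHC4. FN1 was the largest part of this sum, at 994063, 434040 and 271683 in the controls. The skeletal and cardiac markers were 3 higher and 8 lower of 11 tested, with sums of 507 to 783 and 554 to 665. DMD was the largest part of these sums, at 550, 464 and 419 in the controls. The haematopoietic, endothelial and epithelial markers were 1 higher and 11 lower of 12 tested, with sums of 305 to 358 and 236 to 239.7. This last sum moved with the groups, and DESeq2 called KRT18, a simple epithelial keratin, lower (log2 fold change -2.76, adjusted p = 0.00804 against 0.158 in limma). KRT18 rested on only 43, 32 and 114 reads in the controls against 24, 4 and 3 with added SHC4. The mean normalized count of KRT8, another keratin, went from 28.5 to 10.3 with overlapping groups. The endothelial marker PECAM1 was the 1 higher gene, with means of 10.8 and 28.2. In bulk RNA, fewer cells of a type and less RNA per cell cannot be told apart, and the part of these markers in the difference of CNN1 was not tested.

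Pericyte and mural cell markers, which overlap in function with smooth muscle, were 4 higher and 5 lower of 9 tested. Their sums were 15146 to 23784 in the controls and 18187 to 24337 with added SHC4. DESeq2 called PDGFRB, the receptor that recruits mural cells (log2 fold change 1.23, adjusted p = 0.0171 against 0.162 in limma), and RGS5, a pericyte marker (1.17, adjusted p = 0.0121 against 0.166 in limma), higher. It called ABCC9, a subunit of the vascular potassium channel, lower (-1.79, adjusted p = 3.14e-05 against 0.102 in limma). Across all genes DESeq2 called 4.14%.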

How the data were processed

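RNA of 3 UE7T-9 Cont and 3 UE7T-9 SHC4 samples was prepared with the NEBNext Ultra RNA kit and sequenced by Novogene. The submitters' processing notes name HISAT2 2.0.5, featureCounts 1.5.0-p3 and DESeq2. The genome build, annotation and strand setting are not given in the sources used here. The values are a normalized signal that the authors deposited for every gene, namely its count over the size factor of the library (0.849 to 1.20). Reads were recovered from it (100% of values whole, tolerance 0.01). Recovered depth was 18144993 to 27721397 reads, and 3 reads correspond to 2.50 to 3.53 normalized counts. Intervals cover the spread between libraries.

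Samples were grouped by their labels. The main test was limma 3.58.1 with a mean-variance trend, run in R 4.3.3 on log2(normalized count + 1). It covered 23040 genes whose mean reached 1 and left out 5141. DESeq2 1.42.0 and edgeR 4.0.16 (quasi-likelihood) were run on the recovered reads. Other alternatives were library size and TMM scaling, no filter, a mean of at least 10, a pseudocount of 0.1, a replicate block and leaving out each library. P-values were adjusted by Benjamini-Hochberg over all genes tested. The tests were tested on simulated counts of these libraries with 200 changed genes. At a log2 change of 1, limma recovered 64.0%, DESeq2 86.5% and edgeR 57.5%, and at a change of 2 they recovered 95.5%, 98.5% and 96.0%. The changed genes all had a mean of at least 50. Counts were drawn independently, with no library standing apart, so recovery in the real libraries may differ. False calls in the simulation are not reported here.

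The members and gene lists were chosen with earlier results of these data known. Named genes are the members, SHC4, list genes with an adjusted p below 0.05 in any of the 3 tools, up to 3 abundant genes per list and the 5 genes nearest to ACTA2. Other genes (such as DES, MRTFA, MRTFB, CNN2, VCL and the overlapping genes) and the read ratios were chosen after their values were seen. Symbols were matched by Ensembl identifier for 28181 of 28181 genes, and positions are from GENCODE 29 on GRCh38. One further gene list and single genes of another are not reported here.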

Additional observations from a re-analysis of the deposited data

How the results depend on the processing

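SHC4 and the direction of CNN1, LMOD1, TAGLN, MYL9, TPM1 and MYH11 held in all 15 alternatives. Members called numbered 0 with all libraries in limma, 1 in DESeq2 and 3 in DESeq2 without UE7T-9 Cont replicate 1, an alternative added after the data were seen. Members with an adjusted p below 0.05 numbered 0, 1 and 4 in these fits. With each library left out in limma, 0 to 1 were called, 0 to 1 had an adjusted p below 0.05, 5 to 8 were higher in UE7T-9 SHC4, the median log2 fold change was 0.043 to 0.43 and 3 to 5 had no overlap. The lowest count of higher genes (5) was that without UE7T-9 Cont replicate 2, and the highest count without overlap (5) that without UE7T-9 Cont replicate 1. Library size scaling, which moved the median of all genes to -0.10, reversed TPM2 (-0.067) and SRF (-0.057). Leaving out a library reversed genes with small changes, with ranges of -0.04 to 0.37 for ACTA2, -0.27 to 0.22 for TPM2, -0.22 to 0.90 for MYOCD and -0.05 to 0.12 for SRF. The reversed values were -0.040 for ACTA2, -0.17 for TPM2 and -0.052 for SRF without UE7T-9 Cont replicate 2, -0.27 for TPM2 without UE7T-9 SHC4 replicate 1 and -0.22 for MYOCD without UE7T-9 Cont replicate 3. The causes were not tested. CNN1 had adjusted p-values from 0.000867 to 0.587 over the alternatives, and LMOD1 from 0.000885 to 0.615. The deviations of same-numbered libraries correlated at 0.148, 0.013 and -0.007 over 23040 genes and at 0.409, 0.146 and 0.149 over 12678 genes with a mean of at least 50, where UE7T-9 Cont replicate 2 correlated more closely with UE7T-9 SHC4 replicate 3 (0.517). Over all genes tested not every value was above 0.1, and the numbers were not taken as pairs. With a replicate block, limma called 0 members, gave a median log2 fold change of 0.25 and an adjusted p of 0.0538 for CNN1, and brought FHL1 to 0.0202. MYH11 rested on only 9 to 27 reads per library, and how much of its wide interval came from depth was not tested.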
